A study of Mus musculus with 8 samples.

Results

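The nuclear-encoded respiratory chain was followed in mouse proximal tubular cells after cisplatin, as the rows of the deposited gene table whose identifiers map to symbols beginning with Nduf, Uqcr, Cox4 to Cox8 or Atp5, or equal to Sdha, Sdhb, Sdhc or Sdhd, with mitochondrially encoded genes left out. The rule used names and no measured value. It found 80 of 21874 rows: 38 for complex I, 3 for complex II, 7 for complex III, 16 for complex IV and 16 for complex V. Of these, 72 encode subunits (8 of them tissue isoforms of complex IV, and Cox7a2l a supercomplex factor) and 8 encode assembly factors. Another 26 symbols of the pattern had no matched row and were not analysed here, among them Sdha, Cox6a1, Cox6b1, Cox7a2 and Cox8a.

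Oxidative phosphorylation runs on 5 complexes of the inner mitochondrial membrane. Complexes I and II take electrons from NADH and succinate and pass them to ubiquinone, complex III passes them on to cytochrome c, and complex IV gives them to oxygen; the proton gradient built on the way drives complex V, the ATP synthase. Most subunits are encoded in the nucleus and imported, and the remaining ones, in complexes I, III, IV and V, are encoded in mitochondrial DNA. The proximal tubule is rich in mitochondria and covers its transport work mainly by this pathway, and cisplatin accumulates in it and injures it.

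The samples were proximal tubular cells isolated from the renal cortex of male C57BL/6 mice. There were 4 groups of 2 libraries, taken at 0, 24, 48 and 72 h after 30 mg/kg cisplatin given intraperitoneally; no dose is listed for the 0 h group, which served as the control. The duplicates are called biological, with no word on separate animals, so p-values measure only the spread between these samples. Libraries are named by time and by the letter a or b of their column, and paired values below are given in the order a, b.

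Levels are FPKM, which are fragments per kilobase of gene length scaled by mapped depth. Levels can thus be compared between genes where rows keep to their own gene, within the limit of the overlaps given below. Their total over all rows fell from 448667 and 452114 at 0 h to between 314173 and 375186 in the other libraries, and the depth behind them is unknown. These totals hold mt-Co1, a mitochondrially encoded gene that is listed at 0 in all libraries of 24 and 48 h; without it they were 429518 and 433995 at 0 h and between 314173 and 375186 later. Of the 80 member rows, 46 kept to their own gene, 17 also spanned a gene without a row of its own (merged rows), and 17 reached past their gene; 37 overlapped the row of another gene. A merged row is marked where it is named, since its value cannot be split. Overlaps with another row are not marked, and rows keeping to their own gene can have them. Those of Ndufs1 (with Eef1b2) and Ndufb10 (with Rps2) do. Positions are those of the rows in mm10.

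Filtering at 1 FPKM in at least 2 libraries left 75 members among 10757 rows tested. Of the 75, only Cox6a2, the heart and muscle isoform, passed through 1 group alone: it stood at 1.51 and 1.26 FPKM at 0 h and at most 0.304 later, so it had to differ and is not read as a result; the counts against 0 h are also given without it. The 5 that did not pass were the tissue isoforms Cox4i2, Cox7b2, Cox8b, Cox8c and Ndufa4l2. Cox8c was listed at 0 in all 8 libraries.

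Most respiratory chain mRNAs were lower at 48 and 72 h than at 0 h, in every complex, while at 24 h some were lower and others higher. With quantile normalisation complex I had 19 of 38 lower at 48 h in place of 31. The members together summed to 20638 and 19739 FPKM at 0 h, then 19028 and 17191 (24 h), 12789 and 12714 (48 h) and 11619 and 11514 (72 h). The groups at 48 and 72 h lay below all earlier libraries, and the mean at 72 h was 57.3% of that at 0 h. The members' share of all FPKM went another way at first: 4.60% and 4.37% at 0 h, then 5.07% and 4.93% (24 h), 4.07% and 4.00% (48 h) and 3.31% and 3.25% (72 h). Of a total without mt-Co1 the share was 4.81% and 4.55% at 0 h and 3.47% and 3.42% at 72 h, so the 24 h libraries still lay above the control, by less.

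At 24 h against 0 h, 35 of 75 members were lower and 10 higher (limma on log2(FPKM + 1), Benjamini-Hochberg adjusted p under 0.05). Of all rows tested, 40.0% were lower and 25.8% higher, so the share of members lower, 46.7%, was near the background. The members' median log2 change was -0.21, beside -0.12 over all rows. This split depends on scaling: with libraries brought to the same median 30 were lower and 18 higher, with quantile normalisation 25 and 25, and with FPKM rescaled to a total without the mitochondrially encoded rows 25 and 26. These scalings moved the median of all rows by 0.11, 0.10 and 0.18. Without Cox6a2, 34, 63 and 67 of 74 members were lower at 24, 48 and 72 h.

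At 48 h against 0 h, 64 members were lower and 3 higher, against 42.1% and 28.5% of all rows, with a median of -0.73 beside -0.13. At 72 h, 68 were lower and 2 higher, against 32.4% and 37.6% of all rows, with a median of -0.79 beside 0.07. Under the same scalings 42 to 60 members were lower and 5 to 14 higher at 48 h, and 57 to 69 lower and 2 to 4 higher at 72 h. Between successive times, 63 members were lower and 1 higher at 48 h than at 24 h (17.2% and 11.2% of all rows). At 72 h against 48 h, 23 were lower and 9 higher (11.3% and 37.2% of all rows), and 14 to 31 were lower when 1 library was left out, the fewest without library b of 72 h and 15 without library a of 48 h. With the same median 48 were lower and 4 higher.

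**Figure D1:**
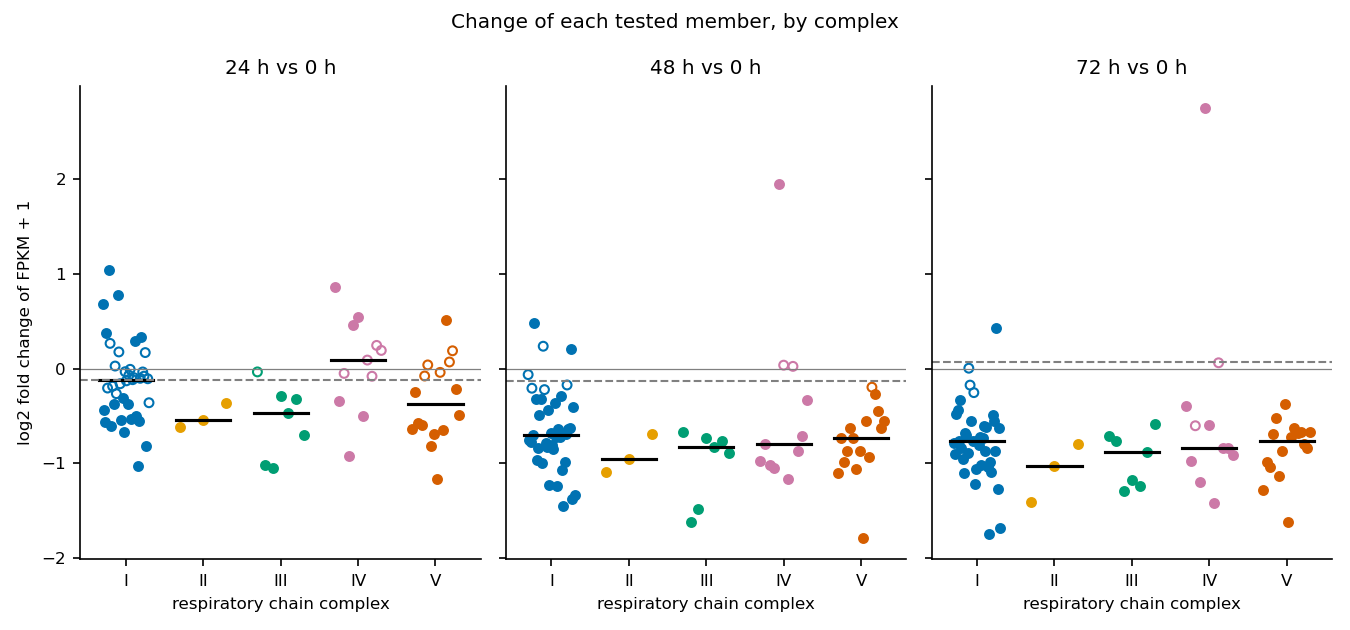
Log2 fold change of FPKM + 1 against 0 h for each of the 75 tested members, by complex, at 24, 48 and 72 h; filled points passed the test, open points did not, black bars are medians (Cox6a2 included) and the dashed line is the median of all 10757 rows. At 24 h complexes I, IV and V lie on both sides of 0, and at 72 h all but a few points lie below the dashed line; with libraries brought to the same median the complex I median at 24 h turns to 0.016.

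The counts at 24 h were unequal between complexes, while 40.0% of all rows were lower and 25.8% higher. There all 3 members of complex II and 6 of 7 of complex III were lower, with medians of -0.54 and -0.47, and 10 of 16 of complex V, with -0.37. Complex I had 13 of 38 lower (34.2%) and 6 higher (15.8%), both under the shares of all rows. Its median of -0.12 turned to 0.016 when libraries were brought to the same median. Complex IV had 2 of 10 lower and 3 higher, with a median of 0.14, leaving out Cox6a2. By 72 h the medians were -0.76 for complex I (34 of 38 lower), -1.03 for II (3 of 3), -0.89 for III (7 of 7), -0.72 for IV (7 of 10, without Cox6a2) and -0.76 for V (16 of 16). Among all rows 32.4% were lower at 72 h. Differences between complexes were not tested.

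**Figure D2:**
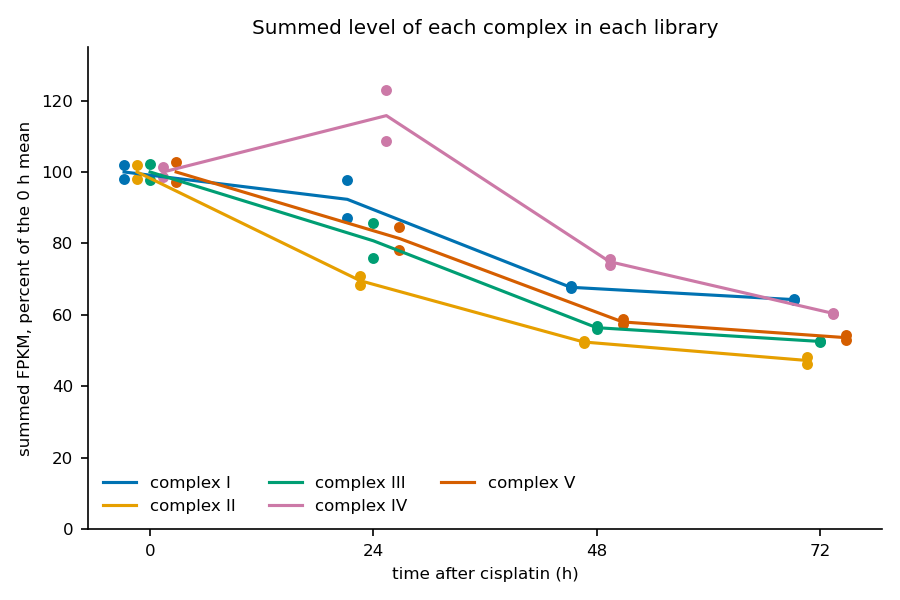
Summed FPKM of each complex in each library as a percent of its 0 h mean, against time after cisplatin in hours; points are libraries, shifted sideways by complex to part them, and lines join the group means. Complex IV stood at 116% at 24 h while complex II stood at 69.5%, and all 5 stood between 47.2% and 64.3% at 72 h. These sums include merged rows, among them that of Ndufs7 in complex I. Leaving out merged rows and those reaching past their gene, complexes I and IV stood at 55.3% and 60.5% at 72 h. Complexes II, III and V then stood at 44.1%, 49.0% and 47.1%. At 24 h complexes IV and II stood at 118% and 67.1% by this count.

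Complex I holds a core that binds flavin and iron-sulfur clusters and carries out the chemistry, and accessory subunits around it. Of the 6 core members 5 were lower at 48 and at 72 h, beside 42.1% and 32.4% of all rows. Ndufs1, the large subunit with several iron-sulfur clusters (chromosome 1, 63143132 to 63177130), stood at 138 and 126 FPKM at 0 h, then 64.6 and 64.1 (24 h), 44.5 and 50.9 (48 h) and 44.0 and 34.0 (72 h). Every later library lay below both 0 h libraries. Its log2 change at 72 h was -1.74 ± 0.12 (SE), with a limma adjusted p of 1.94e-06, the deepest of the 75.

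Ndufv1, which binds NADH and flavin (chromosome 19, 3999697 to 4012898; merged row, also spanning Doc2g and Nudt8), went from 172 and 178 FPKM at 0 h to 70.6 and 73.3 at 72 h, a log2 change of -1.27 ± 0.08. Ndufs3, whose row reaches past its gene, stood at 169 and 167 FPKM at 0 h and 180 and 136 at 24 h, where the libraries straddled the control, and at 86.2 and 71.3 at 72 h. Ndufv2 (merged with Ankrd12) was lower at 72 h by -0.62 ± 0.06; its fall of -0.41 at 48 h turned to 0.25 with quantile normalisation.

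The exception among core members was the row of Ndufs7, another iron-sulfur subunit (chromosome 10, 80248651 to 80294116), which also spans Dazap1, an RNA-binding protein gene, and Rps15, a ribosomal protein gene. It stood at 665 and 643 FPKM at 0 h and 860 and 899 at 72 h, higher by a log2 of 0.43 ± 0.07 (limma adjusted p = 0.000621). How much of this value is Ndufs7 cannot be told apart from the other genes in the row.

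Accessory subunits of complex I had 8 of 25 lower and 5 higher at 24 h, both under the shares of all rows (40.0% and 25.8%). At 72 h all 25 were lower, beside 32.4% of all rows. Of these, Ndufa5 turned to 0.09 at 72 h with quantile normalisation. Ndufv3, a small subunit of the NADH-binding module (chromosome 17, 31512167 to 31531854; row reaching past its gene), stood at 145 and 137 FPKM at 0 h, then 130 and 92.1 (24 h), 57.6 and 52.9 (48 h) and 44.0 and 42.1 (72 h). The 24 h libraries lay below the control without passing the test (log2 change -0.36 ± 0.14, adjusted p = 0.0537), and passed it without library a of 24 h. At 72 h its log2 change was -1.68 ± 0.14. Ndufb10, of the membrane arm (chromosome 17, 24721852 to 24724478), was already lower at 24 h, at 84.5 and 70.7 FPKM against 126 and 122, and stood at 52.3 and 52.9 at 72 h.

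The Ndufaf genes encode assembly factors, which help to build complex I without staying in it. Of the 7, 3 changed at 24 h, where 40.0% of all rows were lower and 25.8% higher. Ndufaf4 (chromosome 4, 24897255 to 24905001) rose from 7.92 and 8.20 FPKM to 14.9 and 14.2 at 24 h, and stood at 10.3 and 9.11 at 48 h and 8.95 and 7.29 at 72 h, where the groups overlapped. Ndufaf7, a methyltransferase, fell from 13.8 and 13.2 FPKM to 7.13 and 8.05 at 72 h. Ndufaf8 was lower at 24 h by -0.31 ± 0.11, a call lost when any library other than 24 h a was left out, and did not pass at 72 h (adjusted p = 0.0721). Ndufaf1 and Ndufaf6 were lower at 72 h, by -0.70 ± 0.08 and -0.55 ± 0.11. Ndufaf2 was lower there by -0.89 ± 0.26, a call lost without library b of 0 h or either library of 72 h. Atp5s, related to the coupling of complex V, fell from 6.79 and 5.80 to 3.84 and 3.30 FPKM.

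Complex II is the succinate dehydrogenase shared with the citric acid cycle. Its iron-sulfur subunit Sdhb (chromosome 4, 140960726 to 140979193) stood at 350 and 341 FPKM at 0 h, then 228 and 221 (24 h), 163 and 161 (48 h) and 126 and 133 (72 h). The 4 groups did not overlap and each lay below the one before it. The log2 change at 72 h was -1.41 ± 0.06, with a limma adjusted p of 8.05e-08. Of the membrane anchors, Sdhc went from 489 and 467 to 226 and 242 FPKM (-1.03 ± 0.07), and Sdhd, in a row merged with Nkapd1, from 257 and 242 to 144 and 142 (-0.80 ± 0.06).

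Complex III, the cytochrome bc1 complex, had all 7 members lower at 48 and 72 h, beside 42.1% and 32.4% of all rows. Uqcrc1, a core protein on the matrix side (chromosome 9, 108935884 to 108949623), stood at 269 and 284 FPKM at 0 h, then 149 and 119 (24 h), 99.0 and 98.4 (48 h) and 110.3 and 114 (72 h); its log2 change was -1.05 ± 0.10 by 24 h and -1.29 ± 0.10 at 72 h. Its partner Uqcrc2 went from 198 and 205 FPKM at 0 h to 168 and 161 at 24 h, a change that turned to 0.03 with quantile normalisation, and to 88.0 and 89.3 at 72 h. Uqcrfs1, the Rieske iron-sulfur protein (row reaching past its gene), went from 323 and 295 to 132 and 129 FPKM, a log2 change of -1.24 ± 0.06.

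The small subunit Uqcr11 (row merged with Mbd3) was lowest at 48 h: 35.9 and 37.8 FPKM at 0 h, 11.3 and 11.3 (48 h) and 20.3 and 22.5 (72 h), higher at 72 h than at 48 h by a log2 of 0.86 ± 0.09 (limma adjusted p = 0.000162). Uqcrq was also higher at 72 h than at 48 h, by 0.31 ± 0.10. Uqcrh and Uqcr10, a small hinge protein and a small membrane subunit, were lower at 72 h by -0.89 ± 0.07 and -0.71 ± 0.09. Levels within the complex were unequal in FPKM: at 0 h the row of Uqcr10, which reaches past its gene, averaged 801 and the merged row of Uqcr11 36.9. Neither row keeps to its own gene, so these are levels of rows.

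Complex IV had 7 constitutive subunits among the tested rows, Cox4i1, Cox5a, Cox5b, Cox6c, Cox7b, Cox7c and Ndufa4. Their median log2 change was 0.19 at 24 h, -0.80 at 48 h and -0.84 at 72 h. Of the 7, 6 were lower at 72 h, beside 32.4% of all rows. Cox4i1, which carries the nucleotide-binding regulation of the enzyme (chromosome 8, 120668171 to 120674005), stood at 26.4 and 22.9 FPKM at 0 h, then 42.9 and 47.9 (24 h), 11.4 and 12.8 (48 h) and 17.2 and 19.8 (72 h). Neither 24 h library came near the control, and the 4 groups did not overlap. Its log2 change was 0.86 ± 0.10 at 24 h (limma adjusted p = 0.0001), -0.97 ± 0.10 at 48 h and -0.39 ± 0.10 at 72 h, and the last lost its call without library a of 0 h or of 72 h and with 2 of the 3 scalings. Its level was low beside the other 6, which averaged between 312 and 847 FPKM at 0 h.

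Cox6c (chromosome 15, 35930311 to 35938246) had the highest 0 h mean of the complex IV members analysed here. It stood at 876 and 817 FPKM at 0 h, then 1257 and 1213 (24 h), 877 and 858 (48 h) and 543 and 575 (72 h). It was thus above the control at 24 h (0.55 ± 0.06), overlapped it at 48 h, and was below it at 72 h (-0.60 ± 0.06). Cox5a, on the matrix side, fell at each time, from 393 and 370 FPKM to 193 and 195.

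Cox5b, the zinc-binding subunit, had duplicates that stood far apart at 48 h, with 350 and 328 FPKM at 0 h, then 338 and 317 (24 h), 122 and 227 (48 h) and 221 and 224 (72 h). The 72 h libraries lay below the control, but the pooled error left this without a call (log2 change -0.60 ± 0.28, limma adjusted p = 0.113). Without library a of 48 h it passed, at an adjusted p of 0.000120, and it also passed without library b of 48 h. Its call at 48 h (adjusted p = 0.0236) was lost when either library of 0 or 24 h was left out.

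Ndufa4, formerly placed in complex I, stood at 791 and 805 FPKM at 0 h, then 977 and 850 (24 h), 647 and 624 (48 h) and 435 and 412 (72 h). It was lower at 72 h by -0.91 ± 0.08, while its fall of -0.33 at 48 h turned to 0.25 with quantile normalisation and to 0.11 with a total without mitochondrially encoded rows. Its counterpart Ndufa4l2, which is known as a target of hypoxia signalling, stayed below 1 FPKM in all 8 libraries, at 0.0570% to 0.209% of Ndufa4. Cox4i2, the lung isoform of Cox4i1, stood between 0.389 and 0.928 FPKM.

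2 tissue isoforms with higher levels moved in opposite directions. Cox7a1, the heart and skeletal muscle form (chromosome 7, 30183810 to 30186206), fell from 10.2 and 9.52 FPKM to 2.96 and 3.14 at 72 h, a log2 change of -1.42 ± 0.12. Cox6b2, the testis form of a subunit facing the intermembrane space (chromosome 7, 4751328 to 4753038), stood at 4.01 and 4.21 FPKM at 0 h, then 5.37 and 6.71 (24 h), 16.7 and 20.9 (48 h) and 35.9 and 31.2 (72 h). The 4 groups did not overlap and each lay above the one before it. The log2 change at 72 h was 2.75 ± 0.13 (limma adjusted p = 1.62e-07), the largest rise among the members; at 24 h it was 0.45 ± 0.13, a call lost without library a of 0 h or library b of 24 h. The usual form, Cox6b1, was not analysed here.

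Cox7a2l is classed as a supercomplex factor of complexes III and IV, and supercomplexes were not measured here. Its row (chromosome 17, 83486200 to 83514637) reaches past its gene. The row had the smallest ratio between its highest and lowest group mean of the 75, 1.06. It stood at 106 and 97.7 FPKM at 0 h, then 111 and 106 (24 h), 109.9 and 97.3 (48 h) and 104.7 and 108 (72 h). Its log2 change at 72 h was 0.06 ± 0.08. It passed the test as higher at 72 h with quantile normalisation (0.58) and with a total without mitochondrially encoded rows (0.35).

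Complex V joins the catalytic F1 head, made of Atp5a1, Atp5b, Atp5c1, Atp5d and Atp5e products, to a rotating ring of c subunits in the membrane and a stalk that holds the head still. All 5 F1 members were lower at 48 and 72 h, beside 42.1% and 32.4% of all rows. Their medians were -0.87 and -0.98, beside -0.13 and 0.07 over all rows. Atp5b, the catalytic beta subunit (row merged with Baz2a), was the most abundant member, at 1610 and 1604 FPKM at 0 h, then 1371 and 1329 (24 h), 978 and 954 (48 h) and 804 and 819 (72 h). Atp5a1, the alpha subunit, went from 850 and 813 FPKM at 0 h to 339 and 343 at 72 h (-1.28 ± 0.06). Atp5c1, the central shaft, went from 352 and 332 to 167 and 166 FPKM (-1.04 ± 0.06). The rows of Atp5d (merged with Midn) and Atp5e (merged with Prelid3b) were lower at 72 h by -0.69 and -0.52.

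The c ring is encoded by 3 genes whose products differ in the import sequence and share the mature protein, so they are compared directly. Atp5g3 (chromosome 2, 73908447 to 73911627) stood at 823 and 759 FPKM at 0 h, then 355 and 351 (24 h), 224 and 234 (48 h) and 256 and 257 (72 h). Its log2 change of -1.78 ± 0.06 at 48 h was the deepest of any member at that time (limma adjusted p = 5.15e-08). Atp5g2 (chromosome 15, 102662634 to 102672352) stood at 110.4 and 114 FPKM at 0 h, then 74.9 and 64.0 (24 h), 59.6 and 62.0 (48 h) and 89.9 and 82.5 (72 h). It was higher at 72 h than at 48 h by 0.50 ± 0.08 and lower than at 0 h by -0.38 ± 0.08, which turned to 0.14 with quantile normalisation. Atp5g2 was thus 13.4% and 15.0% of Atp5g3 at 0 h and 35.2% and 32.2% at 72 h, a share that lay higher in both libraries of each later group than in the control; this ratio was not tested. The row of Atp5g1 spans many genes and its change is not read.

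The upstream sequences of the c-ring genes are shown because these genes supply 1 protein and are set side by side here, with that of Atp5k, a subunit that holds ATP synthase dimers, that of Ndufaf4, which rose at 24 h as Atp5k did, and that of Cox6b2, the largest rise. Each is the last 120 bases before the RefSeq start (GRCm38.p6), read on the gene's strand, with matched motif letters in capitals.

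Atp5g3, chr2:73911327-73911446, minus strand: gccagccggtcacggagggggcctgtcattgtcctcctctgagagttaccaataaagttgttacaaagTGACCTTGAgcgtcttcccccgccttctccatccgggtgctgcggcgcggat
Atp5g2, chr15:102671048-102671167, minus strand: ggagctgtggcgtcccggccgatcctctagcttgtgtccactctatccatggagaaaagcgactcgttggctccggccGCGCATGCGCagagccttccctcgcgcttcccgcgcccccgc
Atp5g1, chr11:96075632-96075751, minus strand: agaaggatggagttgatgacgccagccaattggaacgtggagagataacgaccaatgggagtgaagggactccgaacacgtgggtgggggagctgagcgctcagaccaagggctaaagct
Atp5k, chr5:108434400-108434519, minus strand: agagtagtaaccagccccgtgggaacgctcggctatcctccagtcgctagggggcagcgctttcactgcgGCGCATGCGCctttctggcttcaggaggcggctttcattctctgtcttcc
Ndufaf4, chr4:24897963-24898082, plus strand: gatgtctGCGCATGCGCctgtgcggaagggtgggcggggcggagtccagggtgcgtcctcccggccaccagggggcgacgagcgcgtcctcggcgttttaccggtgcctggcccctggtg
Cox6b2, chr7:4753095-4753214, minus strand: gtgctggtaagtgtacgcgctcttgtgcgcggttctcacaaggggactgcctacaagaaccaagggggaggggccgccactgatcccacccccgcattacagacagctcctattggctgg

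The capitals mark the letters TCAAGGTCA of the estrogen-related receptor motif, read on the other strand as TGACCTTGA in Atp5g3, and GCATGCGC of the nuclear respiratory factor 1 core, which in Atp5g2, Atp5k and Ndufaf4 overlaps its own match on the other strand. The stretches of Atp5g1 and Cox6b2 held none of the 5 motifs searched. Over whole windows of 300 bases, 250 before and 50 after the start, searched on both strands, 64 of the 80 members had a window. The nuclear respiratory factor 1 letters were in 17.2% of these genes and 3.05% of all 27025 genes with a window. CCGGAAG, the core bound by GABP and other ETS factors, was in 20.3% against 9.93%. AAGATGGC, for YY1, was in 15.6% against 3.19%. TGACGTCA, for CREB, was in 6.25% against 2.03%, and the estrogen-related receptor letters were in 3.12% against 0.466%. These are matches of letters, not shown to be sites. The nuclear respiratory factor 1 letters stood upstream of Sdhb, which fell at each time, as well as of Ndufaf4 and Atp5k, which were higher at 24 h. Ndufa5, Ndufa1, Ndufs4 and Ndufc1 were also higher at 24 h, and their upstream stretches of the same length held none of the 5 motifs. A link between these letters and the changes was not tested.

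Of the 7 stalk and membrane members of complex V, 1 was higher and 2 lower at 24 h, beside 25.8% and 40.0% of all rows. At 72 h all 7 were lower, beside 32.4% of all rows. Their medians were 0.04 at 24 h and -0.72 at 72 h. Atp5k (chromosome 5, 108433243 to 108434586) stood at 340 and 298 FPKM at 0 h, then 511 and 404 (24 h), 272 and 284 (48 h) and 207 and 190 (72 h), above the control and then below it. Atp5f1, the b subunit of the stalk (row reaching past its gene), was level at 24 h, at 298 and 271 FPKM against 280 and 274, and lower at 72 h, at 117 and 136 (-1.13 ± 0.09).

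**Figure D3:**
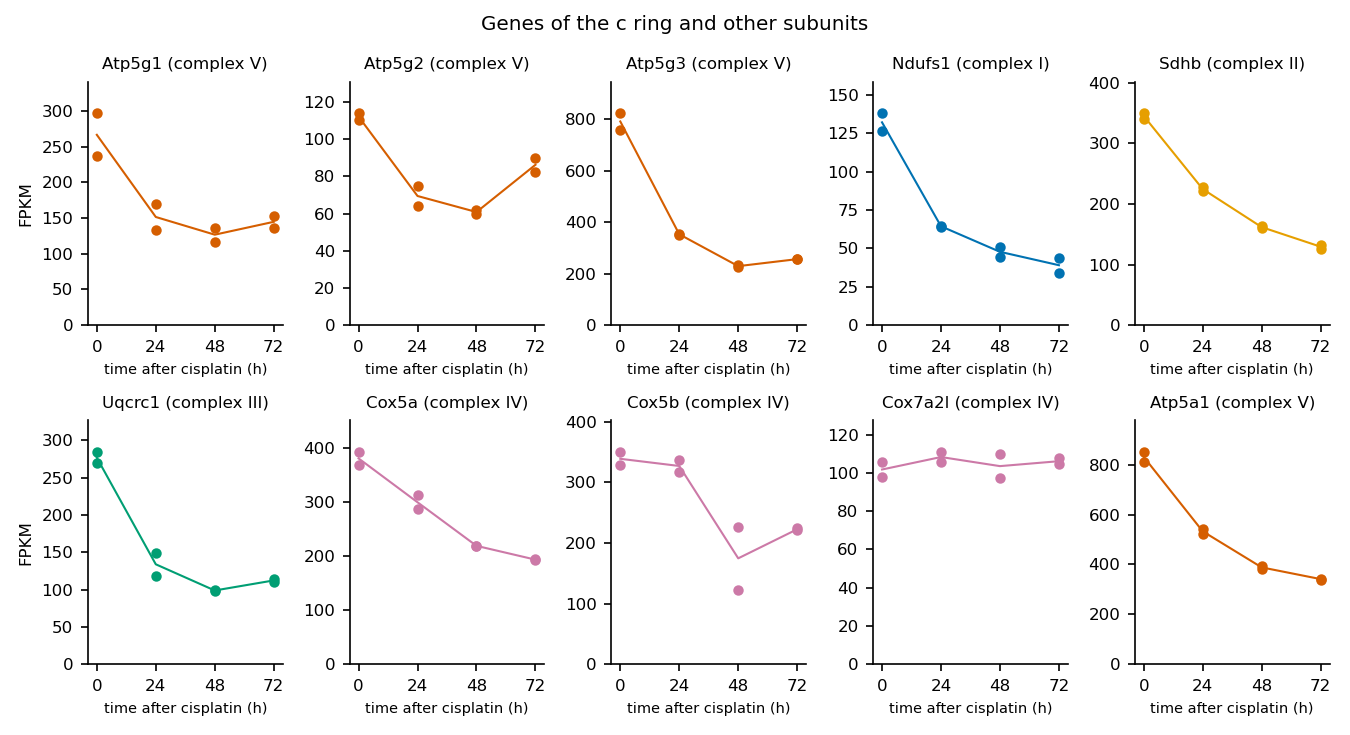
FPKM in each library (points) and group means (lines) against time after cisplatin in hours for the c-ring genes and 7 other subunits or factors, each panel starting at 0 with its own scale. Atp5g3 drops from 823 and 759 to 256 and 257 while Cox7a2l stays between 97.3 and 111, and the 48 h libraries of Cox5b stand apart at 122 and 227.

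The 10 members higher at 24 h were Ndufa5, Cox4i1, Ndufaf4, Ndufa1, Cox6c, Atp5k, Cox6b2, Ndufa2, Ndufs4 and Ndufc1, the last 3 named after their values were seen. Ndufa5, of the matrix arm of complex I (chromosome 6, 24444865 to 24528013; merged with Iqub), stood at 96.2 and 89.3 FPKM at 0 h, then 199.97 and 183 (24 h), 131 and 129 (48 h) and 70.8 and 76.4 (72 h). It rose by 1.04 ± 0.07 at 24 h (limma adjusted p = 4.09e-06) and was still higher at 48 h by 0.48 ± 0.07. Ndufa1, a small membrane-arm subunit on the X chromosome (row reaching past its gene), stood at 62.4 and 58.4 FPKM at 0 h, then 101 and 94.3 (24 h), 57.1 and 58.3 (48 h) and 35.3 and 34.1 (72 h). In each of the 10 both 24 h libraries lay above both 0 h libraries. The 24 h and 0 h groups did not overlap, in either direction, in 8797 of all 10757 rows tested. In Cox6b2 alone of the 10 the 72 h group was above the 24 h group. The highest group mean was at 0 h in 55 of 75 members, at 24 h in 18, at 72 h in 2 and at 48 h in none.

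**Figure D4:**
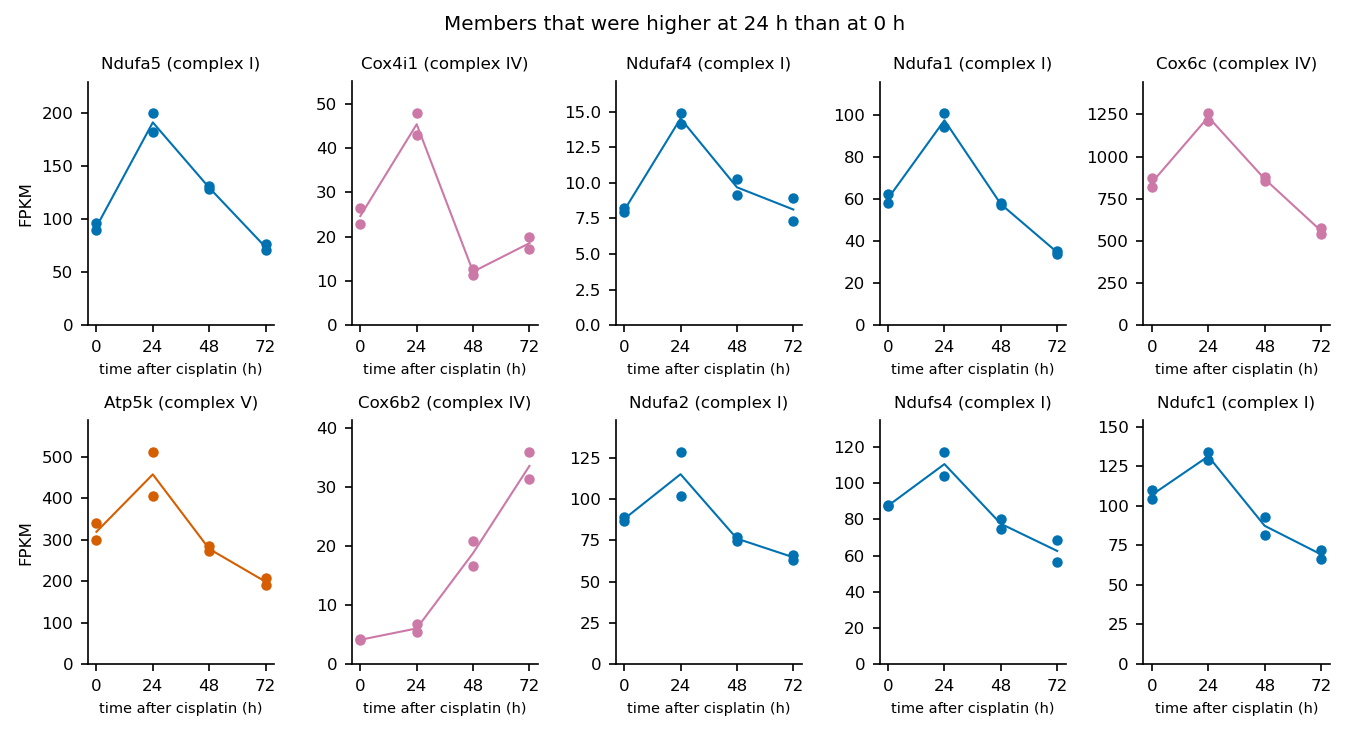
FPKM in each library (points) and group means (lines) against time after cisplatin in hours for the 10 members called higher at 24 h, each panel starting at 0 with its own scale. In 9 of them the mean is highest at 24 h, and Cox6b2 climbs from 4.01 and 4.21 to 35.9 and 31.2.

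The 7 members not lower at 72 h were Cox6b2 and Ndufs7, which were higher, and Cox5b, Cox7a2l, Ndufaf4, Ndufaf5 and Ndufaf8, which did not pass. Those higher at 72 h than at 48 h were Uqcr11, Cox6b2, Cox4i1, Ndufb7, Atp5g2, Uqcrq, Atp5j, Ndufa11 and Ndufs7, of which the rows of Uqcr11, Atp5j and Ndufs7 are merged. With libraries brought to the same median 4 of the 75 were higher over this interval.

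The subunits encoded in mitochondrial DNA share these complexes. Their 10 rows summed to 114228 and 111717 FPKM at 0 h and to between 65338 and 76733 later. The other 9 rows, without mt-Co1, stood at 79.8%, 71.3% and 63.1% of their 0 h mean at 24, 48 and 72 h. Of the 10, 7 were lower and 1 higher at 72 h, beside 32.4% and 37.6% of all rows. mt-Nd3, of complex I, stood at 15014 and 14351 FPKM at 0 h and 5920 and 5645 at 72 h, a log2 change of -1.34. mt-Cytb, the cytochrome of complex III, was lower at 24, 48 and 72 h by -0.82, -0.65 and -0.80. The row of mt-Atp8, which also covers mt-Atp6 and mt-Co3, was lower by -0.48, -0.67 and -0.85. mt-Co1 was listed at 0 in all 4 libraries of 24 and 48 h beside 16678 to 19149 FPKM in the others, so no change is given for it.

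Other genes of the pathway came from lists of textbook members. Of 35 assembly factors outside the name pattern, 18 were lower at 24 h, 22 at 48 h and 20 at 72 h, and 1, 0 and 2 higher. Among all rows 40.0%, 42.1% and 32.4% were lower, and 25.8%, 28.5% and 37.6% higher. Acad9, which helps to assemble complex I, went from 33.5 and 32.6 FPKM to 10.2 and 12.0 at 72 h. Cox15, needed for heme A, was lower by -1.24, and Coa6 and Cmc2, of complex IV assembly, by -0.78 and -0.73. Cycs, cytochrome c (row reaching past its gene), was lower at 72 h by -0.41, with 221 and 234 FPKM at 0 h and 169 and 173 at 72 h.

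Of 17 regulators of mitochondrial gene expression, 10, 10 and 8 were lower at 24, 48 and 72 h, and 3, 6 and 2 higher. The 17 together summed to 329 and 342 FPKM at 0 h, then 335 and 361 (24 h), 350 and 372 (48 h) and 291 and 302 (72 h). Their sum was thus above the control at 48 h and below it at 72 h. The regulators named below all fell, and those that were higher are not named, so the named ones do not stand for the list. Among all rows 40.0%, 42.1% and 32.4% were lower, and 25.8%, 28.5% and 37.6% higher. Esrrg, an estrogen-related receptor, stood at 17.8 and 18.4 FPKM at 0 h and between 6.13 and 8.31 later, and Esrrb fell from 2.96 and 3.19 to 0.109 and 0.123 at 48 h and stood at 1.57 and 1.30 at 72 h. Lrpprc, which stabilises mitochondrial mRNAs, was lower by -1.08, -1.34 and -1.31, and Polrmt, the mitochondrial RNA polymerase, by -0.64 at 24 h and -1.03 at 72 h. Ppargc1a, the coactivator PGC-1alpha (named after its values were seen; row reaching past its gene), stood at 9.92 and 9.57 FPKM at 0 h and between 3.91 and 5.96 later.

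Of 11 import and outer membrane genes, 5, 10 and 7 were lower at 24, 48 and 72 h, beside 40.0%, 42.1% and 32.4% of all rows, and 1, 1 and 0 higher. Vdac1, the main pore of the outer membrane (merged row), went from 406 and 401 to 179 and 185 FPKM at 72 h, and the chaperonins Hspd1 and Hspe1 were lower there by -1.29 and -1.22. The ADP/ATP carriers Slc25a4 and Slc25a5 were lower at 72 h by -0.83 and -1.25.

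Bulk values do not separate fewer cells of a type from less RNA per cell. The marker counts stand beside 40.0%, 42.1% and 32.4% of all rows lower at 24, 48 and 72 h. All 12 proximal tubule markers were present at 0 h, and their summed FPKM went from 6216 and 6716 at 0 h to 2864 and 2510 (24 h), then 1590 and 1639 (48 h) and 864 and 876 (72 h); 11, 12 and 12 of 12 were lower, with medians of -1.31, -2.06 and -2.90. Slc34a1, the phosphate carrier of the brush border, went from 1396 and 1483 to 90.8 and 97.7 FPKM. Markers of other tubule segments were also present at 0 h: the 6 of the thick ascending limb summed to 511 and 514 FPKM and were all lower at each time, with 181 and 182 at 72 h, and 8, 8 and 7 of 8 of the distal convoluted tubule were lower. The 8 intercalated cell markers summed to 35.5% of their 0 h mean at 48 h and 51.8% at 72 h. The 6 principal cell markers summed to 125 and 109 FPKM at 0 h and 160 and 175 at 72 h, where 1 was higher and 3 lower than at 0 h, and all 6 were higher than at 48 h.

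Markers of cells outside the tubule moved in both directions, while 37.6% of all rows were higher at 72 h. The red cell markers summed to 373 and 381 FPKM at 0 h and 4.82 and 4.26 at 72 h, and both tested ones were lower at each time. Of 6 tested neutrophil markers 6 were higher at 72 h, with the 7 on the list summing to 1.05 and 1.22 FPKM at 0 h, 26.8 to 28.5 at 24 h, 26.5 to 32.2 at 48 h, and 74.4 to 76.9 at 72 h; Ly6g was listed at 0 in both 0 h libraries. All 5 tested macrophage and monocyte markers were higher at 72 h, with a sum of 39.7 and 34.3 at 0 h, 38.0 to 47.3 at 24 h, 46.0 to 47.4 at 48 h, and 139 and 142 at 72 h. Of 7 endothelial markers 6 were higher at 72 h (sum 61.9 and 59.6 at 0 h, 122 and 128 at 72 h), as were 5 of 6 podocyte and 5 of 6 pericyte markers. The part of these shifts in the respiratory chain values was not tested.

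**Figure D5:**
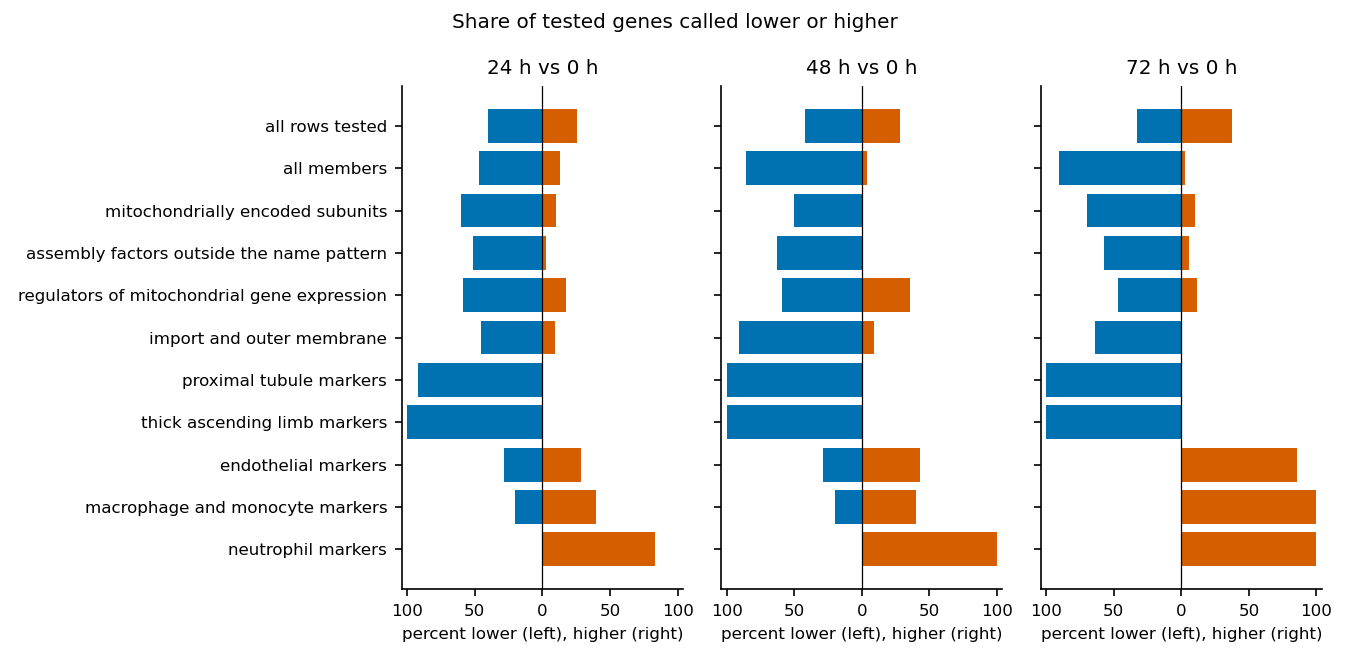
Percent of tested genes called lower (bars to the left) or higher (bars to the right) against 0 h for all rows, the respiratory chain members and 9 gene lists, at 24, 48 and 72 h. The members' bar to the left grows from 35 to 68 of 75, proximal tubule markers are nearly all lower from 24 h, and neutrophil markers are nearly all higher.

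Circular RNAs of the members were few. Among 2163 circRNAs, 2 lay inside the RefSeq span of a member, in Ndufs3 (chromosome 2, 90898384 to 90898762) and Atp5o (chromosome 16, 91926459 to 91926982). The Ndufs3 circle was read in every library, with counts of 8 and 5 at 0 h, then 5 and 5 (24 h), 7 and 4 (48 h) and 5 and 4 (72 h). The Atp5o circle had 2 and 6, 0 and 5, 8 and 0, and 5 and 1. Neither passed edgeR's quasi-likelihood test at any time (smallest adjusted p = 0.773), where 1.78%, 1.27% and 1.33% of circRNAs did at 24, 48 and 72 h; 0 had an unadjusted p under 0.05, and DESeq2 called 0. Differences were not detectable at these counts.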

How the data were processed

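Gene values are FPKM deposited by the authors, named so per the file headers; circRNA values are raw counts for each pair of back-splice positions, as the authors deposited them. Per the submitters' processing notes, the tools were Bowtie 0.12.2, TopHat2 and Cufflinks and the build mm10, without roles. The sources used here do not say whether strand was counted. Ribosomal RNA was removed before library preparation, per the labels' protocols. Columns carry letters where the labels carry replicate numbers, so columns were assigned to time groups only. Another 8 columns of the circRNA table were not used.

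Rows reaching 1 FPKM in 2 or more of 8 libraries were tested with limma 3.58.1 in R 4.3.3 (intensity trend, robust) on log2(FPKM + 1), in 1 fit of 8 libraries, two-sided, with Benjamini-Hochberg adjustment over 10757 rows and a threshold of 0.05. Fold changes on this scale understate those of low genes. Rows were set against RefSeq spans with a tolerance of 2000 bases. circRNAs above 0 in at least 4 libraries were tested with edgeR 4.0.16. Simulated data for 72 h against 0 h, with 200 of 10757 rows changed, gave back 47% of changes of 0.5 and 82% of changes of 1 (log2). False calls were 3.01%. In the data far more rows were called, 4049 higher and 3486 lower, so these rates do not carry over. Circle totals ranged from 13603 to 21024 counts.

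Named genes were the core subunits of each complex, isoforms, called factors, for each contrast with 0 h and complex the 3 deepest falls and 2 highest rises with libraries that did not overlap, and up to 4 genes of each list by smallest p; others are marked. One gene that the rule names is not reported here. Members and lists were chosen with earlier results of these data known. Letters did not pair libraries. Alternatives were another pseudocount, filters, 3 scalings, the 4 libraries compared, own rows, no trend, a block of letters, DESeq2 1.42.0 for circRNAs and leaving out each library.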

Additional observations from a re-analysis of the deposited data

How the results depend on the processing

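Scaling moved many counts. Members higher at 24 h numbered 18 with the same median, 25 with quantile normalisation and 26 with a total without mitochondrially encoded rows; at 48 h 5, 14 and 11; at 72 h 4 with the last; for 48 h against 24 h 2 with each of the last 2; for 72 h against 48 h 4 with the same median and with the last. Members lower at 48 h numbered 42 with quantile normalisation and 38 for 48 h against 24 h; for 72 h against 48 h they were 48, 38 and 41 with the 3 scalings, and 14 to 31 with 1 library left out. Complex I members lower numbered 7 at 24 h and 19 at 48 h with quantile normalisation. With the same median, the complex I, II, III and V medians were 0.016, -0.40, -0.33 and -0.24 at 24 h and -0.54, -0.80, -0.67 and -0.57 at 48 h, and those of I, II and III were -0.83, -1.10 and -0.96 at 72 h. The cause was not tested. Added after the values were seen, leaving out Cox6a2 lowered no count of members by more than 1, and a total without mt-Co1 gave the members 4.677% of all FPKM at 0 h and 3.444% at 72 h.

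Among rows that keep to their own gene, some of which overlap another gene's row, fewer members were tested (41). Of these, 22 were lower at 24 h, 34 at 48 h and 37 at 72 h, with 1 higher at 48 and at 72 h. For 48 h against 24 h 33 were lower, and for 72 h against 48 h 13. By complex, 5 of V were lower at 24 h. Those lower in I, III, IV and V numbered 16, 4, 5 and 7 at 48 h, and 18, 4, 5 and 8 at 72 h.

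Of 2409 alternative values for 138 named gene results, 2289 kept direction and call, 60 lost the call, 44 gained it and 16 turned sign. With quantile normalisation the log2 changes that turned were Atp5e 0.22, Ndufv2 0.25, Uqcrc2 0.026 and Uqcr10 0.28 at 24 h, Ndufa1 0.43, Ndufv2 0.25, Ndufa4 0.25 and Atp5k 0.29 at 48 h, and Ndufa5 0.095 and Atp5g2 0.14 at 72 h; with a total without mitochondrially encoded rows Uqcr10 0.20 at 24 h and Ndufa1 0.37, Ndufv2 0.028, Ndufaf1 0.071, Ndufa4 0.11 and Atp5k 0.24 at 48 h. Letters did not pair libraries (correlations of deviations -0.24 to 0.39); with a replicate block of letters 36, 64 and 68 members were lower at 24, 48 and 72 h.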
